A study of Homo sapiens with 13 samples.

Results

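*TXNIP* encodes thioredoxin-interacting protein, an alpha-arrestin that binds thioredoxin and limits glucose uptake. It was examined with 6 genes around it in the RNA of 2 small cell lung cancer (SCLC) lines: its family members *ARRDC3* and *ARRDC4*, the sugar-responsive transcription factors *MLXIP* and *MLXIPL*, their partner *MLX*, and *TXN*, which encodes thioredoxin itself. These are 7 of the 56831 genes listed for each library. *TXNIP* was chosen by its TPM values in treated and untreated H146, where it rose strongly, so its values in that line are described here without a test. The other genes were taken for their ties to it. All 7 had values and all 7 passed the filter on low values in both lines.

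H82 and H146 are established human SCLC cell lines of unedited genotype, each grown as a single line in RPMI1640 with fetal bovine serum, and every library of a line therefore comes from the same cells. Treated cells received 100 nM FHD-286, an inhibitor of the ATPases SMARCA4 and SMARCA2, for 14 days with fresh drug every 48 h. The controls are labelled as having no treatment, and no vehicle is named for them. There were 3 untreated and 3 treated libraries of H82, and 3 untreated and 4 treated libraries of H146. The labels number the replicates without saying whether they were separate cultures, so the tests measure the spread between these libraries. The values are TPM, a unit in which the reads of a gene are divided by its length and every library is brought to the same sum, so that levels of different genes can be compared.

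TXNIP protein is known to bind reduced thioredoxin and to bring glucose transporters into the cell, and its gene is a strong target of the glucose-sensing factors MondoA (*MLXIP*) and ChREBP (*MLXIPL*). Each of these factors pairs with MLX, enters the nucleus when phosphorylated sugars build up, and binds carbohydrate response elements, which are paired E-box-like motifs a few bases apart. *ARRDC4* is known as another target of the same factors. Thioredoxin, with thioredoxin reductase, keeps cysteines of many proteins reduced.

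The promoters of *TXNIP* and *ARRDC4* are printed because their changes with FHD-286 differed most between the lines among the 7 genes, and because both are known as carbohydrate-response genes. Sequences are from RefSeq (GRCh38.p14), 5′ to 3′ on the strand of the gene. Capitals mark matches to CACGTG (the E-box), to CACGAG (a variant of it) and to CCAAT (the motif bound by NF-Y, read as ATTGG where it lies on the opposite strand).
TXNIP, chr1:145996631-145996727, minus strand: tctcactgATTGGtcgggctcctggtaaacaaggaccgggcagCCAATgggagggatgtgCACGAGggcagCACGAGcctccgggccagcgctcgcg
ARRDC4, chr15:97960473-97960648, plus strand: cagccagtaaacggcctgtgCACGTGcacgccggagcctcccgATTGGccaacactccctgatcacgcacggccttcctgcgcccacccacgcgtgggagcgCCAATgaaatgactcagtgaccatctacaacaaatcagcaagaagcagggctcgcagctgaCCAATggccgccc

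In the *TXNIP* promoter, CACGAG occurred from base -88 to -83 and again from base -77 to -72 before the RefSeq start, with 5 bases between the matches. All searches covered both strands from 250 bases before to 50 bases after a start. A pair of CACGNG boxes 5 bases apart, a pattern that includes the paired CACGAG and would include paired CACGTG, was present in 20 of 35116 promoter windows (0.0570%), of which that of *TXNIP* was the only 1 among the windows of the 7 genes. The *ARRDC4* promoter held no such pair and held CACGTG from base -210 to -205. The *MLX* promoter also held CACGTG, from base -50 to -45. CACGTG was present in 7.26% of all windows, CACGAG in 6.78% and CCAAT in 34.6%. CCAAT matched at 2 places in the *TXNIP* window, at 3 places in that of *ARRDC4* and at 1 place each in those of *ARRDC3*, *MLXIP* and *MLX*. No match was found in the windows of *TXN* and *MLXIPL*, nor in second windows of *TXNIP* and *ARRDC3*. A match is a description of letters, and binding was not measured in these data.

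**Figure D1:**
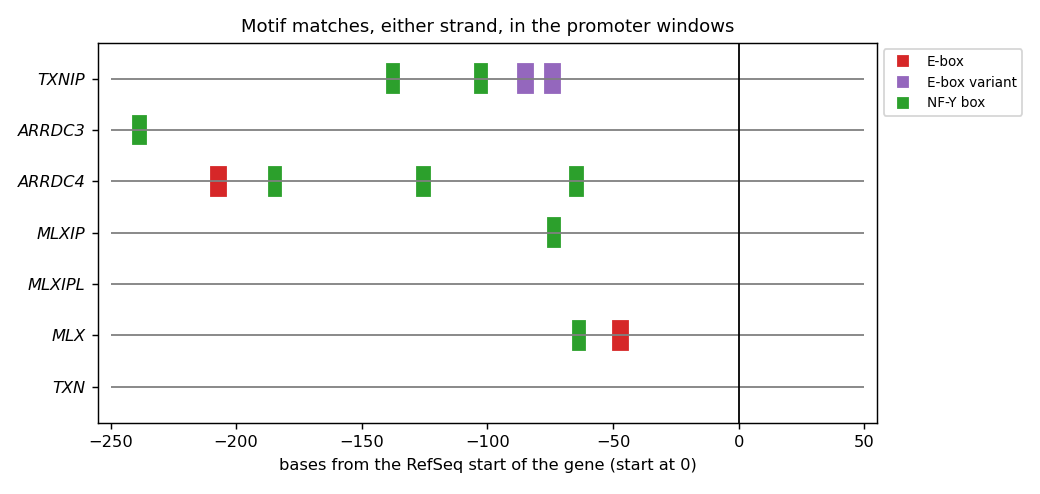
Matches in the first promoter window of each gene, against the distance in bases from its RefSeq start. Red blocks are E-boxes (CACGTG), purple blocks the variant CACGAG and green blocks the NF-Y motif CCAAT. *TXNIP* holds 2 purple blocks 5 bases apart, *ARRDC4* and *MLX* hold 1 red block each, and the lines of *TXN* and *MLXIPL* are empty.

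A gene was tested in a line where 3 or more libraries reached 1 TPM. Groups were compared with limma on log2(TPM + 1), and the *p* value after Benjamini-Hochberg adjustment over every tested gene of the line, given as adjusted *p*, was held against 0.05. In treated H82, 13.1% of 19766 tested genes were higher and 45.5% were lower, and 67.8% had treated and untreated libraries that did not overlap. In treated H146, 32.4% of 19581 genes were higher and 15.5% were lower, and 52.9% did not overlap. The median log2 fold change of all genes was -0.56 in H82 and 0.25 in H146. Scaling the libraries by the median of ratios shifted these medians to -0.14 and -0.02 and gave 4792 higher and 6498 lower genes in H82, and 4166 higher and 4917 lower genes in H146. Untreated H82 libraries held 21227 to 21772 genes at 1 TPM or more, and treated ones 15554 to 16633. A gene at 1 TPM only in untreated H82 enters the test through its high group. Without 1 untreated H82 library, 4290 to 4439 of 16360 to 16484 genes were lower (median -0.34 to -0.33). With mean TPM above 2 as the filter, 7038 of 16683 were lower (median -0.47). The part of the filter in the H82 shares was not tested beyond these alternatives. Mitochondrial genes held 22.1% to 24.1% of the TPM in untreated H82 and 12.3% to 14.9% in treated H82, against 7.56% to 8.86% and 3.82% to 11.4% in H146, and their part in the results was not tested beyond leaving them out. Of 6 neuroendocrine markers, all 6 were at 1 TPM or more in every H82 library and 5 in every H146 library, where *NEUROD1* was below 1 TPM. Their summed level was 654 to 710 TPM in untreated and 187 to 623 TPM in treated H82, and 1447 to 1763 and 1183 to 1528 TPM in H146. These markers did not move alike. In H146 *INSM1* was the largest part, at 1140 to 1405 and 758 to 1018 TPM. *CHGB* was at 70.1 to 84.2 and 194 to 284 TPM there, and the ranges of *SYP*, *CHGA* and *NCAM1* overlapped. In H82 *SYP*, *CHGA* and *NEUROD1* were lower with treatment and *INSM1* was higher (12.5 to 15.8 and 32.1 to 296 TPM). The ranges of *CHGB* and *NCAM1* overlapped in H82. The summed levels of the 5 fibroblast markers were 0.912 to 1.84 TPM in untreated and 7.0 to 32.1 TPM in treated H82, and 7.87 to 11.1 and 13.8 to 23.6 TPM in H146. The 5 leukocyte markers summed to 20.2 TPM or less and the 4 endothelial markers to 2.65 TPM or less in any library, with *CD3E* at 0 in H82 and at 0.102 TPM or less in H146, and the part of these markers in the results was not tested.

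Some treated libraries stood apart. In treated H82 replicate 1, *TXNIP* was far below the other treated H82 libraries, and this library held the lowest of the 3 treated values for 6 of the 7 genes (85.7%), against 50.4% of all genes tested. Treated H82 replicate 2 carried 296 TPM of *INSM1*, a neuroendocrine transcription factor, against 32.1 and 33.9 TPM in the other treated H82 libraries. It also stood apart for *FOXA2* (35.7 against 2.62 and 1.08 TPM) and *EPCAM* (32.8 against 3.08 and 1.11 TPM). In every H146 library *INSM1* was at 758 TPM or more, *FOXA2* at 309 TPM or more and *EPCAM* at 268 TPM or more. *PTPRC*, at 3.29 TPM or more in every H146 library, was at 0.0782 TPM or less in every treated H82 library. *INSM1*, *FOXA2* and *EPCAM* were named outside the rule used for the lists, and the cause of their levels was not tested. Treated H146 replicates 3 and 4 were the most alike of that group, with a standard deviation of 0.345 for their log2 differences over genes against 0.526 to 0.787 for the other pairs, and they were kept as 2 libraries.

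With FHD-286, the level of *TXNIP* was lower in every treated H82 library than in any untreated one, and higher in every treated H146 library than in any untreated one. Untreated H82 held 298, 333 and 310 TPM of *TXNIP* (ENSG00000265972.6, chr1:145992435-145996579 in hg38), and treated H82 held 11.6, 152 and 120 TPM. Untreated H146 held 5.75, 9.32 and 4.48 TPM, and treated H146 held 189, 201, 168 and 164 TPM. The order of the group means was untreated H146 (6.52 ± 2.51 TPM, SD, n = 3), treated H82 (94.6 ± 73.6 TPM, n = 3), treated H146 (180 ± 17.2 TPM, n = 4) and untreated H82 (314 ± 17.7 TPM, n = 3), and no group in this order overlapped the next. By the ranges given, the treated lines lay closer to each other than the untreated lines. The gene was chosen for its rise in H146, so this order is a description and not a result about the lines.

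The *TXNIP* value in H146 was the one for which the gene was chosen. Mean TPM was 27.7-fold higher with treatment, the log2 fold change was 4.64 (SE 0.21), and the gene ranked number 3 of 19581 by log2 fold change. In H82 the log2 fold change was -2.35 (SE 0.88, 95% interval -4.43 to -0.28), which missed the threshold among all genes (adjusted *p* = 0.0531) although the groups did not overlap. This value rested on treated replicate 1 for its size and its spread. Without that library it was -1.21 (SE 0.12, adjusted *p* = 0.000398), without treated replicate 2 it was -3.01 (adjusted *p* = 0.0280) and without treated replicate 3 it was -2.84 (adjusted *p* = 0.0460), each past the threshold. It missed the threshold without untreated replicate 1 (adjusted *p* = 0.109), 2 (adjusted *p* = 0.140) or 3 (adjusted *p* = 0.111), and under the median of ratios (-1.87, adjusted *p* = 0.104). In all, 6 of the 14 alternatives run for this value passed. The log2 fold change in H146 exceeded that in H82 by 6.99, which was not tested because the choice of the gene used it.

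**Figure D2:**
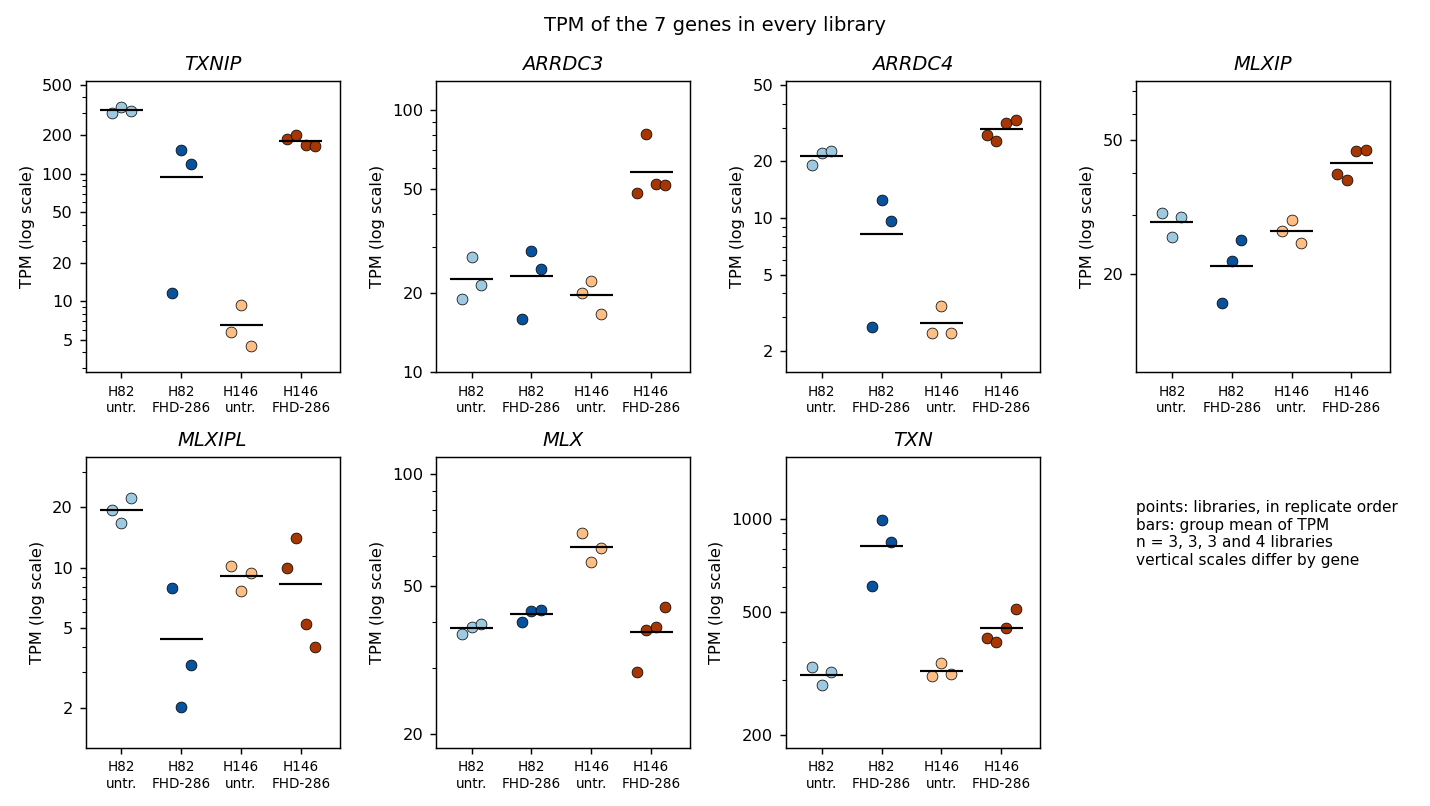
TPM of the 7 genes on log axes, with 1 point per library and a bar at the mean of each group. Untreated H82 and H146 libraries are light blue and light orange, treated ones dark blue and dark orange. *TXNIP* and *ARRDC4* are lower in treated than in untreated H82 and higher in treated than in untreated H146, and the lowest dark blue point of each is treated replicate 1.

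*ARRDC4*, an alpha-arrestin paralog of *TXNIP* that is also known to lower glucose uptake, moved in opposite directions in the lines. In H82 it went from 19.1, 22.1 and 22.4 TPM to 2.67, 12.4 and 9.68 TPM. The H146 libraries moved from 2.47, 3.42 and 2.49 TPM to 27.4, 25.4, 31.7 and 33.0 TPM. Treated and untreated libraries did not overlap in either line, and the lowest treated H82 value was again that of replicate 1. In H146 *ARRDC4* rose 10.5-fold in mean TPM (log2 fold change 3.01, SE 0.16, adjusted *p* = 7.77e-06) and ranked number 47 of 19581 genes. In H82 it fell (log2 fold change -1.46, SE 0.46, adjusted *p* = 0.0299). The H82 value was -0.89 without treated replicate 1 (adjusted *p* = 0.00259). It missed the threshold without untreated replicate 1 (-1.53, adjusted *p* = 0.0662), 2 (-1.43, adjusted *p* = 0.0945) or 3 (-1.42, adjusted *p* = 0.0814), and with scaling by the median of ratios (-1.01, adjusted *p* = 0.0960). The change differed between the lines by 4.46 on the log2 scale (95% interval 3.39 to 5.54, adjusted *p* = 1.44e-05). For this test 46.5% of 23672 genes had a change in H146 above that in H82, and 13.7% had one below it.

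*ARRDC3*, an alpha-arrestin known to bring beta-adrenergic receptors and integrin beta-4 to degradation, rose in H146. Untreated H146 held 19.9, 22.2 and 16.7 TPM, and treated H146 held 47.9, 80.5, 51.9 and 51.6 TPM. Every treated library exceeded every untreated one, with replicate 2 far above the other 3. The log2 fold change was 1.50 (SE 0.20, adjusted *p* = 0.0006). In H82 the values were 18.9, 27.3 and 21.4 TPM without and 15.9, 28.9 and 24.6 TPM with the drug. These ranges overlapped, and the log2 fold change of 0.01 had a 95% interval of -0.58 to 0.60 (adjusted *p* = 0.974). The difference between the lines was 1.49 (95% interval 0.77 to 2.20, adjusted *p* = 0.002), and under the median of ratios it was 0.70 and missed the threshold (adjusted *p* = 0.0783). *ARRDC3* overlaps *ARRDC3-AS1* on the opposite strand, and whether counting used the strand is not given in the sources used here, so reads of these genes may not be told apart.

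The genes of the 2 glucose-sensing factors did not move alike. *MLXIP*, which encodes MondoA, rose in H146 from 26.8, 28.9 and 24.8 TPM to 39.6, 38.1, 46.6 and 46.9 TPM, without overlap (log2 fold change 0.65, SE 0.13, adjusted *p* = 0.00401). In H82 it held 30.3, 25.8 and 29.6 TPM without and 16.3, 21.8 and 25.3 TPM with the drug. These groups did not overlap either, and the log2 fold change of -0.43 missed the threshold (SE 0.19, adjusted *p* = 0.0874). Under the median of ratios it was 0.04, with the sign turned. The lines differed by 1.08 (95% interval 0.61 to 1.56, adjusted *p* = 0.00105), and by 0.30 under the median of ratios, which missed the threshold (adjusted *p* = 0.178).

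*MLXIPL*, which encodes ChREBP, the factor best known from liver and fat, fell in H82. Untreated H82 held 19.4, 16.8 and 22.4 TPM, and treated H82 held 7.94, 2.02 and 3.28 TPM. This was the only 1 of the 7 genes whose lowest treated H82 value lay outside replicate 1. The log2 fold change was -2.07 (SE 0.39, adjusted *p* = 0.00369), and it stayed past the threshold in all 14 alternatives run for it. In H146 the untreated libraries held 10.2, 7.63 and 9.41 TPM and the treated ones 9.93, 14.0, 5.26 and 4.03 TPM. The treated H146 libraries spread to both sides of the untreated ones, and the log2 fold change of -0.24 had a 95% interval of -1.06 to 0.58 (adjusted *p* = 0.606). The difference between the lines was 1.82 (95% interval 0.58 to 3.07, adjusted *p* = 0.0156), and it missed the threshold under the median of ratios (1.11, adjusted *p* = 0.141) and under quantile normalization (0.87, adjusted *p* = 0.213). Part of *MLXIPL* overlaps another annotated gene on the same strand.

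*MLX*, the partner that both factors need for binding DNA, fell in H146. It went there from 69.5, 58.1 and 63.1 TPM to 29.4, 38.1, 38.9 and 43.9 TPM, with all 4 treated libraries below the untreated ones (log2 fold change -0.76, SE 0.15, adjusted *p* = 0.00449). In H82 the values were 37.0, 38.8 and 39.5 TPM without and 40.0, 42.8 and 42.9 TPM with the drug. These groups did not overlap, and the log2 fold change of 0.12 missed the threshold (95% interval -0.17 to 0.41, adjusted *p* = 0.421). It was past the threshold under the median of ratios (0.60, adjusted *p* = 0.00352) and under quantile normalization (0.35, adjusted *p* = 0.0362). The lines differed by -0.88 (95% interval -1.30 to -0.46, adjusted *p* = 0.00184), opposite in sign to the difference of *MLXIP*. *MLX* overlaps *PSMC3IP* on the opposite strand.

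*TXN* rose in both lines. In H82 it went from 331, 290 and 318 TPM to 605, 995 and 844 TPM (log2 fold change 1.35, SE 0.22, adjusted *p* = 0.00192). The H146 libraries moved from 310, 341 and 314 TPM to 413, 400, 443 and 511 TPM (log2 fold change 0.45, SE 0.12, adjusted *p* = 0.0152). No treated library overlapped an untreated one in either line, and the untreated lines overlapped each other. The H82 value was past the threshold in all 14 alternatives run for it. The H146 value missed it without untreated replicate 1 (0.43, adjusted *p* = 0.0667), without untreated replicate 3 (0.43, adjusted *p* = 0.0562) and under the median of ratios (0.13, adjusted *p* = 0.368). The lines differed by -0.90 (95% interval -1.42 to -0.38, adjusted *p* = 0.00612), and by -0.41 under quantile normalization, which missed the threshold (adjusted *p* = 0.0805). Thioredoxin and peroxiredoxin genes have processed pseudogenes, and how reads shared with such copies were counted is not given in the sources used here.

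Read against all genes, 1 of the 7 genes rose in H82 (*TXN*) and 2 fell (*ARRDC4* and *MLXIPL*), where 13.1% of all genes rose and 45.5% fell. Of the 6 genes other than *TXNIP*, 4 rose in H146 (*ARRDC3*, *ARRDC4*, *MLXIP* and *TXN*) and 1 fell (*MLX*), where 32.4% of all genes rose and 15.5% fell. For the difference between the lines, the H146 change lay above the H82 change for 4 of these 6 genes and below it for 2, where these shares were 46.5% and 13.7% of all genes. With so few genes these counts only describe the set.

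**Figure D3:**
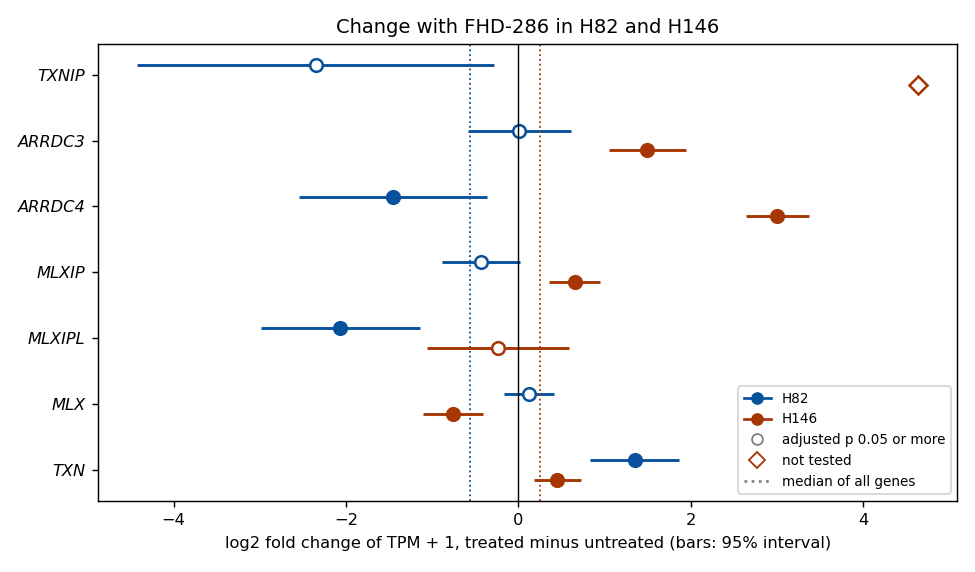
Log2 fold change of TPM + 1, treated minus untreated, of each gene in H82 (blue) and H146 (orange), with 95% intervals. Filled points passed an adjusted *p* of 0.05 and the diamond is *TXNIP* in H146, at 4.64 and not tested. Dotted lines mark the medians of all genes, -0.56 in H82 and 0.25 in H146, and *ARRDC4* has filled points on opposite sides of 0.

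A ratio of TPM of 2 genes within a library is the same under any scaling by a single factor per library, though not under quantile normalization. The ratio of *TXN* to *TXNIP* TPM was 1.11, 0.871 and 1.02 in untreated H82, so the RNAs were about equal there, and 52.0, 6.53 and 7.05 in treated H82. In H146 it was 54.0, 36.6 and 70.1 without and 2.19, 1.99, 2.63 and 3.11 with the drug. Treated H82 thus held more *TXN* RNA per *TXNIP* RNA than untreated H82 in every library, and treated H146 held less than untreated H146. For H82 the two-sided exact permutation test of the log2 ratio gave *p* = 0.1, the smallest that 3 against 3 libraries allow, and for H146 no test was made. Within the alpha-arrestins, the ratio of *TXNIP* to *ARRDC4* was 14.8 ± 0.91 in untreated H82 (SD, n = 3), 9.67 ± 4.60 in treated H82 (n = 3), 2.29 ± 0.46 in untreated H146 (n = 3) and 6.27 ± 1.37 in treated H146 (n = 4). *TXNIP* thus exceeded *ARRDC4* in every library. *ARRDC3* per *ARRDC4* went from 7.09 ± 0.87 to 2.03 ± 0.76 in H146 (exact permutation *p* = 0.0286, the smallest that 3 against 4 allow) and from 1.06 ± 0.15 to 3.61 ± 2.04 in H82 (exact permutation *p* = 0.1).

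The ratio of *MLXIP* to its partner *MLX* went from 0.425 ± 0.063 to 1.16 ± 0.15 in H146 (SD, n = 3 and 4, exact permutation *p* = 0.0286) and from 0.744 ± 0.077 to 0.502 ± 0.090 in H82 (SD, n = 3 and 3, exact permutation *p* = 0.1). Neither line had overlapping groups. *MLXIP* per *MLXIPL* went from 1.47 ± 0.13 to 6.85 ± 4.44 in H82 (exact permutation *p* = 0.1) and from 3.02 ± 0.67 to 6.80 ± 4.17 in H146, where the groups overlapped (exact permutation *p* = 0.2). Adjusted over the 8 ratio tests that were made, the exact permutation *p* values of 0.0286 and 0.1 became 0.114. With these group sizes none of the 8 could have passed after adjustment, so this says nothing of whether the ratios changed.

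**Figure D4:**
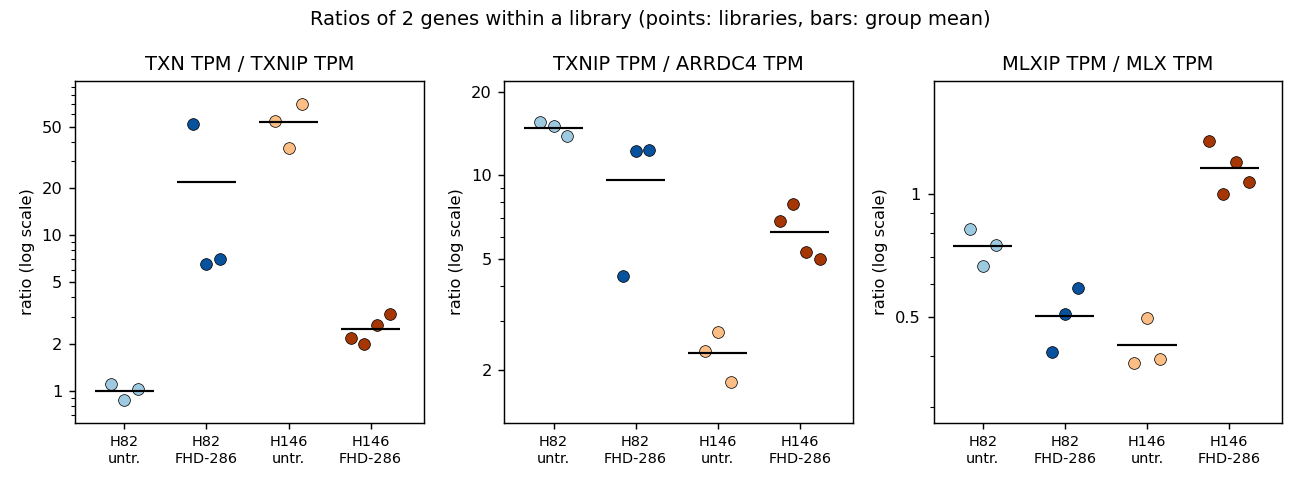
Ratios of TPM within each library on log axes, with 1 point per library and a bar at the group mean. *TXN* per *TXNIP* is near 1 in untreated H82 and between 36.6 and 70.1 in untreated H146, and between 1.99 and 52.0 with treatment. *MLXIP* per *MLX* is lower with treatment in H82 and higher with treatment in H146.

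Genes whose pattern was most like that of *TXNIP* were sought over the 13 libraries by the root-mean-square difference of log2(TPM + 1) after each gene's own mean was taken away, among 23671 genes. The libraries form 4 groups in 2 lines, so the measure mostly reflects group means, and it is a description. *LHX4*, a LIM homeobox transcription factor, was nearest (0.98), with mean TPM of 10.2 in untreated and 3.21 in treated H82, and 0.226 in untreated and 8.32 in treated H146. *ARRDC4* was the next nearest (1.09). *RP11-54O7.3* (1.11), *SLC12A2*, which encodes a sodium-potassium-chloride cotransporter (1.14), and *RNU6-415P*, a U6 pseudogene (1.15), followed. Of the other genes examined here, *ARRDC3* took place 4944, *MLXIP* 8614, *TXN* 12172, *MLXIPL* 13726 and *MLX* 17678. The genes nearest to *ARRDC4* were *VCAN* (0.38), *LHX4* (0.46), *MEX3A* (0.47), *AP5B1* (0.51) and *DDX6* (0.51), and *TXNIP*, whose swings were larger, took place 3979.

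Around these genes, 7 lists with 63 genes of the pathway were examined, of which 54 were tested in H82 and 53 in H146. In H82, 13 of the listed genes rose and 18 fell, where 13.1% of all genes rose and 45.5% fell. The lists' median log2 fold change was -0.10 there and that of all genes -0.56. In H146, 18 rose and 10 fell, with a median of 0.19 against 0.25, where 32.4% of all genes rose and 15.5% fell. The other alpha-arrestins *ARRDC1* and *ARRDC2* were tested and *ARRDC5* was near 0. *ARRDC1*, known for its part in budding of vesicles, fell in H82 from 27.1 ± 2.31 to 7.75 ± 2.17 TPM (log2 fold change -1.71, adjusted *p* = 0.00079), and its log2 fold change in H146 was 0.01. *ARRDC2* rose in H146 from 4.38 ± 0.67 to 11.7 ± 1.21 TPM (log2 fold change 1.24, adjusted *p* = 0.0005), and its log2 fold change in H82 was -0.13.

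The other partners of MLX are *MXD1*, *MXD4* and *MNT*, repressors that compete for it. In H82, where 45.5% of all genes fell, 2 of 3 fell, *MXD1* (log2 fold change -2.07, adjusted *p* = 0.00101) and *MNT* (-1.37, adjusted *p* = 0.000397). In H146, where 32.4% of all genes rose, 2 of 3 rose. *MXD4* rose there from 42.6 ± 6.12 to 112 ± 42.5 TPM (log2 fold change 1.29, adjusted *p* = 0.00988). *MNT* passed with overlapping groups (log2 fold change 0.46, adjusted *p* = 0.0482).

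The thioredoxin and glutaredoxin list held 14 genes beside *TXN*, all tested. In H82, 9 rose, none fell and 5 did not pass, where 13.1% of all genes rose and 45.5% fell. The list's median log2 fold change was 0.80 where all genes had -0.56. *SRXN1*, which repairs overoxidized peroxiredoxins, was at 0.0727 ± 0.0711 TPM without and 2.70 ± 1.06 TPM with the drug. It entered the test only through the treated libraries, and its log2 fold change was 1.75 with a pseudocount of 1 and 4.05 with 0.1. It is 1 of the 9 counted, and a gene that enters in this way has to differ. The peroxiredoxin genes *PRDX5* (log2 fold change 1.69, adjusted *p* = 0.00143) and *PRDX1* (1.42, adjusted *p* = 0.0105), which remove hydrogen peroxide, rose as well. *PRDX1* was at 1119 ± 21.4 TPM without and 3178 ± 1221 TPM with the drug. In H146, 4 rose, 2 fell and 8 did not pass, where 32.4% of all genes rose and 15.5% fell. The list's median was 0.24 against 0.25. *TXNRD1*, the cytosolic thioredoxin reductase, rose there from 363 ± 45.8 to 1003 ± 57.2 TPM (log2 fold change 1.47, adjusted *p* = 7.68e-05), and *PRDX4* (1.21, adjusted *p* = 0.00335) and *PRDX1* (0.97, adjusted *p* = 0.000777) rose too. *GLRX*, a glutaredoxin, fell in H146 (-1.49, adjusted *p* = 0.000742) and rose in H82 (0.96, adjusted *p* = 0.0056), a difference of -2.45 (adjusted *p* = 1.76e-05).

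The carbohydrate-response list held 16 genes known as targets of ChREBP or MondoA, with 14 tested in H82 and 11 in H146. In H82, 2 rose, 6 fell and 6 did not pass, where 13.1% of all genes rose and 45.5% fell. The median log2 fold change was -0.90 where all genes had -0.56. *PNPLA3*, a lipid droplet lipase, had the largest fall (-2.39, adjusted *p* = 0.000204). *G0S2*, an inhibitor of fat breakdown, fell from 32.2 ± 4.99 to 9.07 ± 8.62 TPM (-2.07, adjusted *p* = 0.0176) and missed the threshold without untreated replicate 1 (-2.05, adjusted *p* = 0.0529), 2 (-2.19, adjusted *p* = 0.0530) or 3 (-1.97, adjusted *p* = 0.0566). *SCD*, which desaturates fatty acids, fell (-1.61, adjusted *p* = 0.0346), was at -0.93 without treated replicate 1, and missed the threshold without untreated replicate 1 (-1.62, adjusted *p* = 0.0831), 2 (-1.56, adjusted *p* = 0.108) or 3 (-1.64, adjusted *p* = 0.0805). Treated H82 replicate 1 held the lowest treated value for 9 of the 14 genes.

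In H146, 5 genes of the carbohydrate-response list rose, 3 fell and 3 did not pass, where 32.4% of all genes rose and 15.5% fell. The list's median was -0.07 against 0.25. *FGF21*, which encodes a fasting hormone, was at 31.7 ± 4.26 TPM without and 0.439 ± 0.235 TPM with the drug, and it entered the test only through the untreated libraries. *RGS16*, a regulator of G protein signalling, fell from 479 ± 40.1 to 60.9 ± 40.4 TPM (-3.16, adjusted *p* = 0.000524). The lipid synthesis genes *FASN*, from 132 ± 27.2 to 266 ± 18.7 TPM (1.02, adjusted *p* = 0.000916), and *ACACA*, from 12.9 ± 3.60 to 27.2 ± 3.07 TPM (1.05, adjusted *p* = 0.00317), rose. *ACACA* fell in H82 (-1.23, adjusted *p* = 0.00438), so that the lines differed by 2.28 (adjusted *p* = 8.17e-05). *FASN* was at -1.07 in H82 (adjusted *p* = 0.0731), and the lines differed by 2.09 (adjusted *p* = 0.0023). The known targets thus held genes that moved with *TXNIP* in H146 and genes that moved against it.

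Of the 9 genes of glucose entry and hexokinases, 6 were tested in H82, where 2 fell and none rose, and 7 in H146, where 1 rose and 3 fell. Beside these counts, 13.1% of all genes rose and 45.5% fell in H82, and 32.4% rose and 15.5% fell in H146. The medians were -0.13 in H82 and -0.11 in H146, where those of all genes were -0.56 and 0.25. *HK1*, a widely used hexokinase gene, fell in H146 (-0.94, adjusted *p* = 0.00061). *SLC2A3*, a neuronal glucose transporter, fell in H82 (-1.21, adjusted *p* = 0.00212). In H146 it was at 0.460 ± 0.055 TPM without and 1.41 ± 0.49 TPM with the drug, and it entered the test only through the treated libraries. *HKDC1*, a hexokinase-like gene, was at 1.96 ± 0.73 and 0.0940 ± 0.0456 TPM in H146 and entered the test only through the untreated ones. *SLC2A1*, the transporter that TXNIP is known to take off the cell surface, did not pass in either line, at -0.15 in H82 (adjusted *p* = 0.663) and 0.38 in H146 (adjusted *p* = 0.297).

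The list of arrestin partners and NEDD4-family ubiquitin ligases held 11 genes, with 9 tested in H82 (1 rose, 6 fell, median -0.66) and 10 in H146 (1 rose, 2 fell, median -0.04). Of all genes, 13.1% rose and 45.5% fell in H82, with a median of -0.56. In H146, 32.4% of all genes rose and 15.5% fell, with a median of 0.25. *DDIT4*, whose product REDD1 forms a complex with TXNIP, went from 109 ± 25.7 to 248 ± 113 TPM in H82 (1.08, adjusted *p* = 0.0437). This call was lost without any of the 3 untreated libraries (0.87 to 1.19, adjusted *p* = 0.0786 to 0.158) and without treated replicate 1 (0.99, adjusted *p* = 0.0839) or 2 (0.77, adjusted *p* = 0.118). In H146 *DDIT4* fell from 396 ± 105 to 125 ± 21.8 TPM (-1.65, adjusted *p* = 0.000436). The ligase gene *NEDD4L* fell in H82 (-0.94, adjusted *p* = 0.00333). In H146 it was at -0.42 (adjusted *p* = 0.0244) and missed the threshold without untreated replicate 1 (-0.41, adjusted *p* = 0.0868) or 2 (-0.39, adjusted *p* = 0.0922) or treated replicate 3 (-0.38, adjusted *p* = 0.0690) or 4 (-0.40, adjusted *p* = 0.0564). *WWP1* fell in H82 (-0.73, adjusted *p* = 0.0136; -0.64 with adjusted *p* = 0.0604 without untreated replicate 2) and rose in H146 (0.69, adjusted *p* = 0.0111), and neither value passed under the median of ratios. *NEDD4* was at -0.74 in H82 (adjusted *p* = 0.0173) and missed the threshold without untreated replicate 2 (-0.57, adjusted *p* = 0.0544) or treated replicate 2 (-0.70, adjusted *p* = 0.0517) or 3 (-0.70, adjusted *p* = 0.0526). Under the median of ratios (-0.29, adjusted *p* = 0.271) and under quantile normalization (-0.17, adjusted *p* = 0.505) *NEDD4* in H82 was further from the threshold.

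Of 7 other known regulators of *TXNIP* transcription, 6 were tested in each line. In H146, 4 rose and none fell, where 32.4% of all genes rose and 15.5% fell. The median log2 fold change was 0.71 where all genes had 0.25. *NFYA*, a subunit of the CCAAT-binding factor NF-Y, rose from 48.1 ± 11.3 to 116 ± 15.3 TPM (1.27, adjusted *p* = 0.000866), while *NFYB* was at -0.04. *NR3C1*, the glucocorticoid receptor gene, rose from 4.59 ± 0.49 to 11.7 ± 1.14 TPM (1.19, adjusted *p* = 0.000473), and *FOXO3*, a forkhead factor gene, rose too (0.87, adjusted *p* = 0.00599). In H82, 1 rose, 1 fell and 4 did not pass, where 13.1% of all genes rose and 45.5% fell. The list's median was -0.35 against -0.56. *NFYC* rose (0.80, adjusted *p* = 0.00687) and *FOXO3* fell (-0.87, adjusted *p* = 0.00136). The lines differed by 1.74 for *FOXO3* (adjusted *p* = 5.71e-05), by 1.52 for *NFYA* (adjusted *p* = 0.00211) and by 1.57 for *NR3C1* (adjusted *p* = 0.000374).

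**Figure D5:**
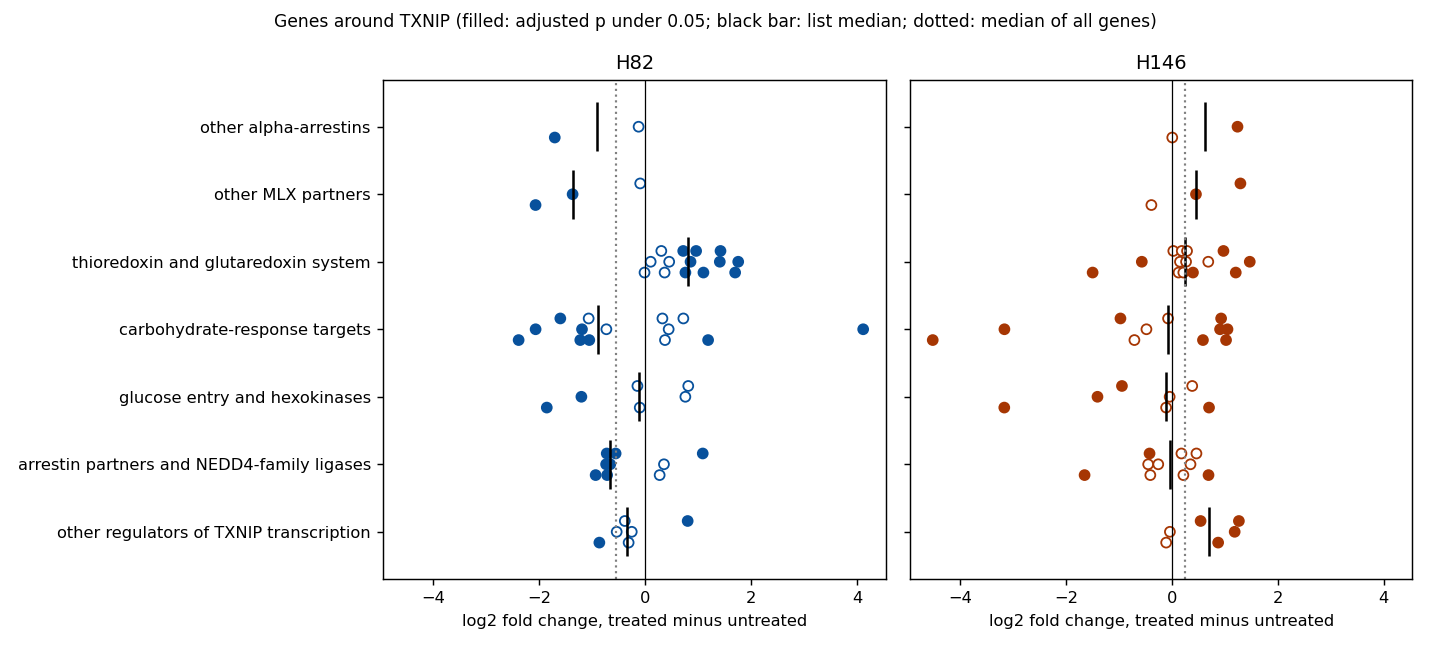
Log2 fold change, treated minus untreated, of each tested gene of the 7 pathway lists in H82 (blue) and H146 (orange). Filled points passed an adjusted *p* of 0.05, black bars are list medians and dotted lines the medians of all genes. The thioredoxin and glutaredoxin list lies to the right of the dotted line in H82, with a median of 0.80 against -0.56.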

How the data were processed

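RNA-seq of 13 libraries was analysed. The authors trimmed reads with Trim Galore 0.4.4 (per the submitters' processing notes), mapped them to hg38, counted them per gene with STAR and GENCODE release 28, compared groups with DESeq2, and deposited TPM for each library. Reads per library are not in the tables, so no interval or floor from counts is given. The TPM carry no scaling between libraries beyond their common sum. The authors' comparison was not used here.

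Genes that reached 1 TPM in 3 or more libraries of a line were tested on log2(TPM + 1) with limma 3.58.1 in R 4.3.3 (lmFit, eBayes with trend, two-sided, Benjamini-Hochberg adjustment over all genes tested, threshold 0.05). A fold change on this scale understates that of low genes. The difference between lines was the interaction of line and treatment over all 13 libraries. Ratios within a library were compared by exact permutation of mean log2 ratios. Medians and counts describe the lists. Symbols appeared as dates for 29 genes, of which 4 with a shared date were left out. Promoters were matched by symbol, with 9 windows for all 7 genes. Gene positions are from GENCODE release 44.

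The 7 genes and the lists were chosen with earlier results of these data known. In each list and line, the genes named are the largest rise and fall past the threshold without overlap and up to 2 more by size. *MNT* in H146, *SLC2A1*, *NFYB*, and the second line of a named gene were added after their values were seen. Some genes that the lists count are not reported here by name. Fits were tested on simulated data. Alternatives were another pseudocount and filter, other scalings, no mitochondrial genes, the replicate number as a block, no trend, and each library left out. Averaging treated H146 replicates 3 and 4 was chosen after seeing the data. Python 3.11.15 with pandas 2.3.3, scipy 1.17.1 and matplotlib 3.10.9 was used.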

Additional observations from a re-analysis of the deposited data

Results flagged for a closer look

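In treated H146, *ARRDC3* in replicate 2 (80.5 TPM) stood far from the other 3 libraries (47.9 to 51.9 TPM), with a gap of 0.877 of the group's range. The treated H146 values of 27 genes were examined in this way, and chance places about 1 in 20 such groups past the limit.

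The difference between the lines is given here as the H146 minus the H82 log2 fold change. Of all genes, 46.5% were called above and 13.7% below. For *TXNIP* it was 6.99, with every treated library below the untreated ones in H82 and above them in H146, and this difference was not tested. By the limma interaction test it was 1.49 for *ARRDC3* (adjusted *p* = 0.002), 4.46 for *ARRDC4* (adjusted *p* = 1.44e-05), 1.08 for *MLXIP* (adjusted *p* = 0.00105), 1.82 for *MLXIPL* (adjusted *p* = 0.0156), -0.877 for *MLX* (adjusted *p* = 0.00184) and -0.898 for *TXN* (adjusted *p* = 0.00612). The median of this difference over all 23672 genes was 0.73. Under the median of ratios *ARRDC3*, *MLXIP* and *MLXIPL* missed the threshold, and under quantile normalization *MLXIPL* and *TXN* did.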

How the results depend on the processing

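*TXNIP* in H82 missed the threshold as reported (-2.35) and passed it under quantile normalization (-2.54), without mitochondrial genes (-2.51) and with the replicate block (-2.35, adjusted *p* = 0.0232), and leaving out single libraries gave -3.01 to -1.21. It missed the threshold under the median of ratios (-1.87, adjusted *p* = 0.104), with no filter (adjusted *p* = 0.101), with a pseudocount of 0.1 (adjusted *p* = 0.0617), without any of the 3 untreated libraries (adjusted *p* = 0.109 to 0.140), with the filter on mean TPM and with no trend, so that 6 of 14 alternatives passed. In H146 the *TXNIP* value was 4.44 to 4.89 with single libraries left out. Values with the sign turned were *ARRDC3* in H82, at -0.14 without mitochondrial genes and between -0.16 and 0.25 with a library left out, *MLXIP* in H82 at 0.0393 under the median of ratios, *MLXIPL* in H146 at 0.0105 with the replicate block and between -0.52 and 0.0105 with a library left out, and *MLX* in H82 at -0.0291 without mitochondrial genes, and none of these was past the threshold. The cause was not tested.

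Of the 7 genes in H82, 2 were higher under the median of ratios and under quantile normalization, and 1 (no filter, median of ratios) or 4 (no mitochondrial genes) were lower. The lines differed upward for 1 gene under the median of ratios and downward for 1 gene under quantile normalization. Of the pathway list genes, 21 and 20 rose in H82 under these scalings, and 11 fell under the median of ratios. Over all genes, the median of ratios gave 4792 higher in H82, and 4166 higher and 4917 lower in H146, and quantile normalization gave 5067 higher and 5546 lower in H82.

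With 1 library left out, 1 to 3 of the 7 genes were lower and 1 was higher in H82, and 3 to 4 of the 6 tested genes were higher and 1 was lower in H146. The lines then differed upward for 4 genes and downward for 2. Of the list genes, 11 to 17 rose and 11 to 21 fell in H82, and 13 to 20 rose and 5 to 12 fell in H146. Over all genes 1675 to 3503 were higher and 4290 to 9956 lower in H82, and 4285 to 7478 higher and 1812 to 3729 lower in H146. Leaving out an untreated H82 library left 16360 to 16484 genes to test instead of 19766.

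Libraries with the same replicate number did not deviate together (correlations of -0.04 to 0.03 in H82 and -0.11 to 0.01 in H146), so the numbers were not read as pairs. With the replicate block, 2332 genes were higher and 8623 lower in H82, and 4748 higher and 2378 lower in H146, where treated replicate 4 has no partner and was left out. *TXN* in H146 then missed the threshold (0.38, adjusted *p* = 0.104). No exact test of genes under the filter was run, since all 7 genes passed it. Of all values recomputed, 1031 kept direction and side of the threshold or moved little.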
